A study of Mus musculus with 10 samples.

Results

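The cytosolic ribosomal protein genes were defined by symbol. The set holds every protein-coding gene whose GRCm38 symbol begins with Rpl or Rps, without the kinases of the Rps6k family and without Rps19bp1, which share the prefix but are not ribosomal subunits. This gave 91 members of the 21695 protein-coding genes among the 48709 genes in the tables, 57 of them for the large subunit and 34 for the small subunit. RNA had been sequenced from supporting cells, the non-sensory cells that surround hair cells, which were sorted by green fluorescence from utricles of Lfng-EGFP mice at postnatal day 21 (P21). The transgene reports Lfng and so selects the cells that express it. The utricles, balance organs of the inner ear, had been cultured for 5 days with 10 μM TRULI, an inhibitor of the Lats kinases, in 0.1% DMSO, or with 0.1% DMSO alone, and part of each series was then kept for 5 further days without treatment. The labels thus give 3 DMSO and 3 TRULI libraries at 5 days and 2 DMSO and 2 TRULI libraries at 10 days.

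A ribosome is built from ribosomal RNA and many ribosomal proteins, nearly all of which are present as a single copy in each particle. Cells usually make these proteins in matched amounts, and most of their mRNAs begin with a tract of pyrimidines, the TOP motif, through which the growth-regulating kinase complex mTORC1 controls their translation. Yap, the transcriptional coactivator that Lats kinases hold back, drives growth and division of epithelial cells, which gives the question that these libraries address for the set: whether the mRNAs of the ribosome rise or fall with TRULI and after its removal.

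For 4 of the 10 libraries the condition in the sample label differed from that in the name under which the table was deposited. Pair A is labelled TRULI at 5 days, replicates 1 and 2, and was deposited as DMSO at 10 days, replicates 1 and 2. Pair B is labelled DMSO at 10 days, replicates 1 and 2, and was deposited as TRULI at 5 days, replicates 2 and 3. The library labelled TRULI replicate 3 at 5 days, called TRULI replicate 3 here, was deposited as TRULI replicate 1 at 5 days. Ccn2, a direct Yap target, stood at 436, 309.7 and 273 FPKM (fragments per kilobase of effective length, scaled to library size) in the 3 tables deposited as TRULI at 5 days and at 0.987 to 8.68 FPKM in the other 7. A list of 6 Yap targets from the paper's figure, Ccn2 among them, summed to 783 to 866 FPKM in those 3 tables and to 38.1 to 317 in the other 7. The paper shows there targets that differed between TRULI and control in these data, so that the list gives no independent support to a grouping. With TRULI at 5 days, 4 of 5 tested targets were called higher by deposited name and 0 by sample label, against 2.13% and 0.00897% of all genes. These values were not used to assign a group. Every comparison was run by sample label and, beside it, by deposited name. The labels do not tie libraries to animals or cultures, so that p-values measure the spread between these libraries, which may be in part technical. The 6 libraries deposited as 5-day samples held 2017429 to 3633527 nuclear counts, with 13.0% to 26.4% of all counts on the mitochondrial ribosomal RNA mt-Rnr2, whereas the 4 deposited as 10-day samples held 3006292 to 6086171 nuclear counts with 1.45% to 2.53% on mt-Rnr2. Those 4 stand apart by this share also where the label says 5 days, as it does for pair A.

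Ribosomal protein mRNAs were detected in every library. The members summed to 1.04% to 2.79% of nuclear counts, and 84 or 85 of the 91 had a count in any one library. On the FPKM scale, 57 members had a median of 100 or more over the 10 libraries, 24 lay between 10 and 100, 4 between 1 and 10, and 6 had no count in any library. For these 6 the summed 36493104 nuclear counts allow up to 0.0822 CPM (counts scaled to library size) each, a limit of 3 counts that covers counting error only. They are Rpl3l, Rpl10l and Rpl39l, paralogs known mainly from muscle and testis, and Rpl36-ps4, Rpl36a-ps1 and Rpl9-ps1, which the annotation lists as protein-coding despite their pseudogene symbols.

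Rpl27, a protein of the large subunit, had the highest level at a median of 3673 FPKM (2097 to 26603). Rplp1, one of the acidic proteins of the stalk that recruits elongation factors, followed at 1571 FPKM (807 to 9756), and Rpl10, which joins the large subunit late and lies near its catalytic centre, at 1106 FPKM (980.0 to 1549). The range of Rpl27 overlapped that of Rplp1, and the range of Rplp1 enclosed that of Rpl10, so that only the medians order these 3. The lowest levels among tested members were those of Rpl10-ps3 at 7.72 FPKM (0 to 13.0), Rps12-ps3 at 5.39 FPKM (0 to 10.8) and Rpl9-ps6 at 3.52 FPKM (1.23 to 11.6), all with a pseudogene symbol. Several genes for small proteins were low as well: Rpl37 stood at 10.9 FPKM (4.59 to 29.3), Rpl35 at 17.0 FPKM (13.5 to 32.2) and Rpl39 at 18.5 FPKM (1.98 to 47.7). Over the 68 members with at least 50 counts on average over the 10 libraries, Spearman's rho of the median FPKM with transcript length was -0.16, given as a description, since these genes share 10 libraries.

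**Figure D1:**
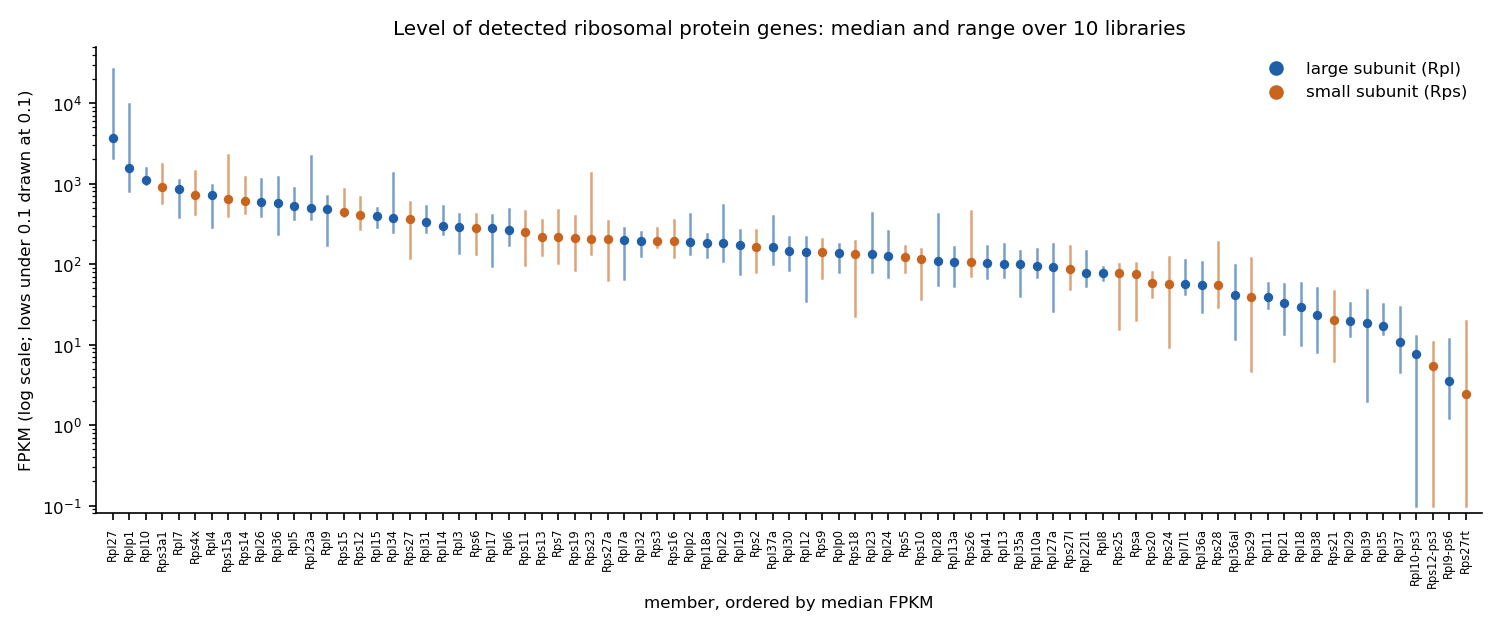
Median FPKM (point, log scale) of 83 detected ribosomal protein genes, each with its lowest and highest library (line), in order of the median, blue for the large and orange for the small subunit. Rpl27 and Rplp1 stand at the left with ranges of 2097 to 26603 and 807 to 9756 FPKM, while Rpl10 keeps within 980 to 1549. A further 2 detected members are not drawn.

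Many of these genes have near-identical copies in the genome, and reads that fit several copies are split between them in expected counts. Of the 91 members, 11 shared no stretch of 100 bases with another gene and 4 shared at least 90% of their stretches. Whole numbers made up 65.4% of the members' expected counts within 1e-06, against 96.5% of those of all genes. The 268 pseudogenes named after members held 1.79% to 2.78% of the members' counts. Rpl10 shared 91.6% of its stretches with 10 other genes and Rps27 98.4% with 2, so that the counts of these genes are uncertain. Rpl22, Rps3 and Rps27l shared none. Fewer cells of a kind and less RNA per cell cannot be told apart in bulk libraries.

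With TRULI at 5 days, no ribosomal protein gene passed the test under either grouping. By sample label 81 members were tested. None was called higher and none lower at an adjusted p under 0.05 (edgeR quasi-likelihood test with Benjamini-Hochberg adjustment over all genes tested), against 0.00897% of all 11149 genes called higher and 0% lower. At an unadjusted p under 0.05 there were 11 members higher and 1 lower, 14.8% of the members against 13.6% of all genes. DESeq2 called 3 members higher and 0 lower. Without TRULI replicate 3, which leaves pair A against DMSO, 14 members were called higher and 5 lower. The same libraries form the comparison of days in the DMSO series by deposited name, where 11.2% of 11463 genes were called higher and 7.85% lower. For DESeq2, the replicate block and most other fits that leave out a library, the share of all genes called was not taken, here and below. The median log2 fold change over the members was 0.14, beside 0.04 over all genes. Here and in the other comparisons the highest and lowest members are taken from those with at least 50 counts on average. The highest were Rpl27 at 2.53 ± 0.82 (SE), Rplp1 at 2.52 ± 0.80, Rps23, a protein of the decoding centre, at 2.27 ± 0.77, and Rpl23a, at the exit of the peptide tunnel, at 1.70 ± 0.66, with adjusted p from 0.325 to 0.345. Among the lowest were Rps27a, made as a fusion with ubiquitin, at -1.19 ± 0.47, Rpl27a at -0.97 ± 0.46 and Rps18 at -0.78 ± 0.52.

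By deposited name, the group of 3 TRULI libraries is TRULI replicate 3 with pair B, and 81 members were again tested. None was called higher and none lower, against 2.13% of 11526 genes called higher and 1.23% lower. At an unadjusted p under 0.05 there was 1 member, Rps2, which is 1.2% of the members against 16.4% of all genes. DESeq2 called 0 members. Their log2 fold changes had a median of -0.10 and an SD of 0.30, beside 0.01 and 0.79 over all genes, and among genes with at least 50 counts on average the SDs were 0.27 and 0.62. For 60 of the 81 the 95% interval lay within 1 log2 unit on either side of 0, so that a change of that size was outside the interval for those genes, while for the other 21 it was not. Rps2, a protein of the small subunit's mRNA entry, stood at 57.0, 93.8 and 69.8 CPM in the 3 DMSO libraries and at 98.3 in TRULI replicate 3 and 107 and 119.6 in pair B. Each TRULI library was above each DMSO library. The log2 fold change was 0.55 ± 0.24 with an adjusted p of 0.269 by the edgeR quasi-likelihood test. How many members or genes separate the libraries in this way was not counted. Rps27l, a paralog that p53 is known to induce, had the highest value among members with at least 50 counts, 0.70 ± 0.36. Its interval was -0.09 to 1.50 and its adjusted p 0.376 by the edgeR quasi-likelihood test. After Rps2, Rpl36 and Rps16 came next at 0.43 ± 0.52 and 0.36 ± 0.28. Among the lowest were Rpl36al at -0.60 ± 0.40, Rps4x at -0.52 ± 0.26 and Rpl35a at -0.46 ± 0.27.

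**Figure D2:**
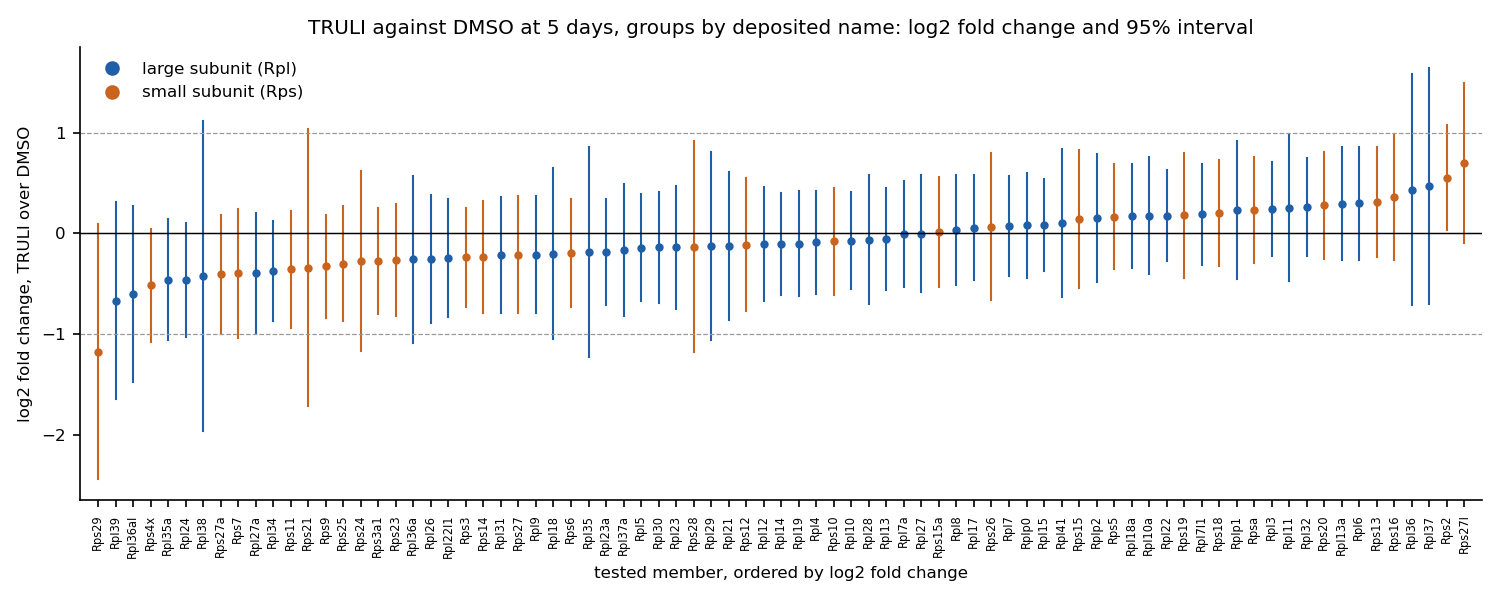
Log2 fold change of TRULI over DMSO at 5 days, with groups by deposited name (3 libraries each), for 79 tested members, each with its 95% interval, in order of the value. For 60 of the 79 the interval lies between the dashed lines at -1 and 1, and none passed the test after adjustment. A further 2 tested members are not drawn.

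Single libraries show where the groupings part. Rpl27 stood at 773, 1380.2 and 948 CPM in the 3 DMSO libraries at 5 days, 4081 and 12774 in pair A, 890.0 in TRULI replicate 3, 909 and 1299.7 in pair B and 4138 and 7809 in the 2 TRULI libraries at 10 days. Pair A and the 2 TRULI libraries at 10 days were above each of the other 6 libraries, with no overlap. TRULI replicate 3, which carries the same condition in its label and its name, lay within the range of the 3 DMSO libraries for Rpl27. Rps27a stood at 144, 131 and 73.8 CPM in the 3 DMSO libraries at 5 days, 30.1 and 37.9 in pair A, 84.2 in TRULI replicate 3, 80.4 and 97.7 in pair B and 38.4 and 37.0 in the 2 TRULI libraries at 10 days. Here pair A and the TRULI libraries at 10 days were below each of the other 6. Rplp1 and Rps23 divided the libraries as Rpl27 did. These members are among the highest and lowest by label at 5 days, so that some separation follows from that choice. The share of members or of all genes that divide the libraries in this way was not taken, here and below.

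**Figure D3:**
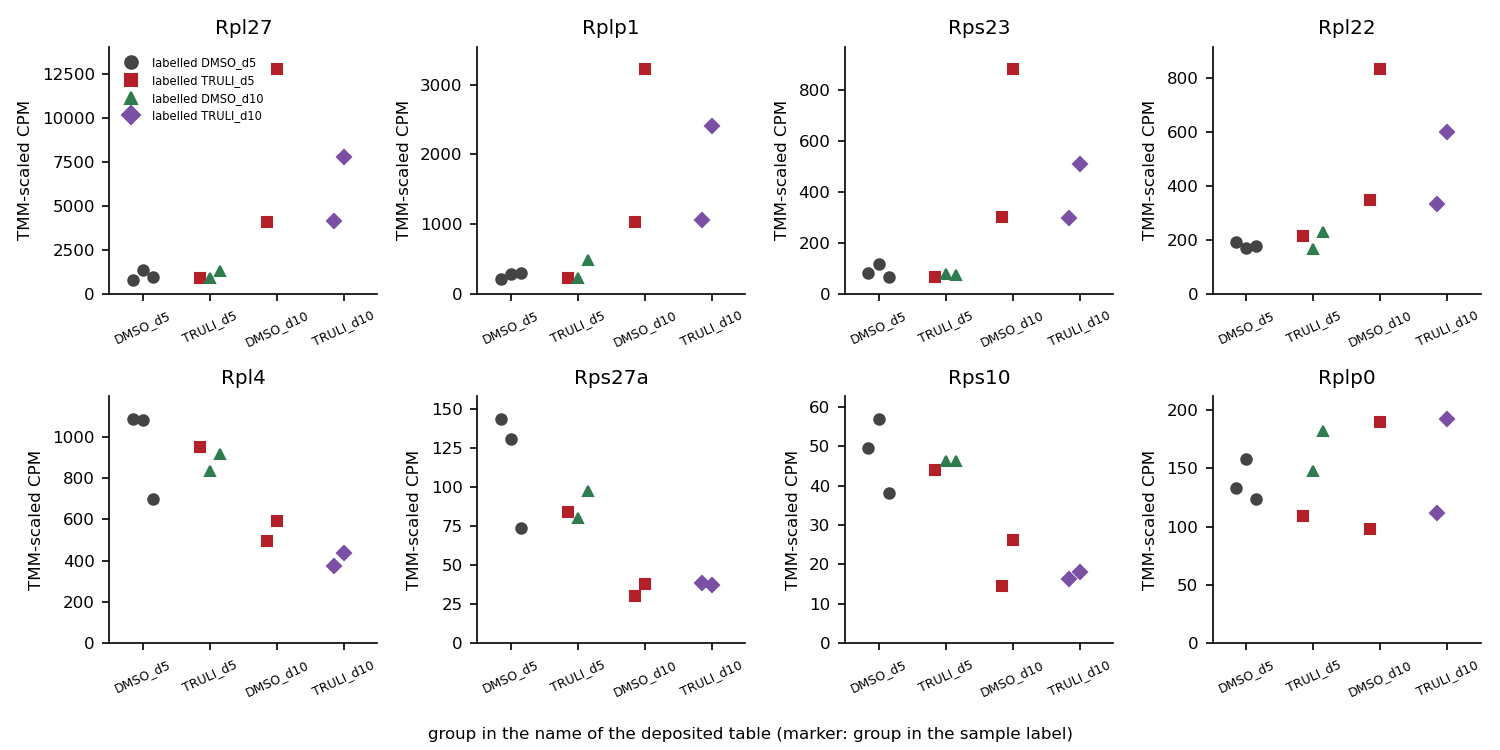
TMM-scaled CPM of 8 ribosomal protein genes in each library, placed by the group in the deposited name, with the marker for the group in the sample label. For Rpl27, Rplp1, Rps23 and Rpl22 the 4 libraries deposited as 10-day samples lie above the other 6, for Rpl4, Rps27a and Rps10 they lie below, and for Rplp0 the groups overlap. All but Rplp0 were called between days in at least 1 series by name.

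At 10 days, 5 days after TRULI had been removed, the result again depended on the grouping. By sample label 2 of 83 members, 2.41%, were called higher and none lower, against 0.857% of 12368 genes called higher and 0.889% lower. Rpl27 was higher by 2.42 ± 0.41 (95% interval 1.46 to 3.39, adjusted p = 0.0458 by the edgeR quasi-likelihood test) and Rps23 by 2.39 ± 0.39 (1.49 to 3.29, adjusted p = 0.0450). The next values were 2.30 ± 0.53 for Rplp1 and 2.21 ± 0.56 for Rps26, neither of which passed, and among the lowest were Rpl27a at -1.48 ± 0.52, Rps10 at -1.44 ± 0.44 and Rpsa at -1.36 ± 0.47. At an unadjusted p under 0.05 there were 13 members on either side, 31.3% of the members against 24.5% of all genes. DESeq2 called 9 members higher and 3 lower. Without replicate 1 of pair B, and likewise without replicate 2 of pair B, 0 members were called higher. Without TRULI replicate 1 at 10 days 14 were higher and 5 lower, and without TRULI replicate 2 at 10 days 8 were higher and 10 lower. The replicate block gave 9 higher and 6 lower. This comparison sets the TRULI libraries at 10 days against pair B, which was deposited as TRULI at 5 days. In it 3 of the 6 Yap targets of the paper's figure, Birc5, Ccn2 and Ajuba, were called lower, against 0.889% of all genes. That list was drawn from these same data.

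By deposited name, the DMSO group at 10 days is pair A. None of 82 members was called higher or lower by edgeR, against 0% of all 11555 genes in each direction. The unadjusted p was under 0.05 for 1 member, Rpl9 at -1.01 ± 0.41, which is 1.22% of the members against 4.58% of all genes. DESeq2 called 0 members. The median over the members was -0.30, beside 0.01 over all genes. It came to 0.35 without replicate 2 of pair A. Only 2 of the 82 intervals lay within 1 log2 unit on either side of 0, so that this comparison of 2 with 2 libraries left a change of that size inside the interval for nearly all members. Among the highest values were 1.47 ± 0.83 for Rps18, 0.63 ± 0.58 for Rpl22l1 and 0.48 ± 0.41 for Rpl31, and the lowest -1.49 ± 0.73 for Rps20, -1.19 ± 0.84 for Rps25, -1.01 ± 0.41 for Rpl9 and -0.95 ± 0.64 for Rpl19. Rps18 shows the spread behind these. It stood at 19.2 and 10.4 CPM in pair A and at 68.2 and 13.2 in the TRULI libraries, so that 1 TRULI library was above both of pair A and the other lay between them.

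The change with TRULI was tested for a difference between 5 and 10 days. Of 83 members none passed with edgeR under either grouping, against 0% of all 12751 genes by sample label and 0% by deposited name. At an unadjusted p under 0.05 there was 1 member by label and 2 by name, beside 6.85% and 9.47% of all genes. DESeq2 called 0 members by label.

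The largest differences among ribosomal protein genes lay between the 5-day and the 10-day libraries as the deposited names give them. In the DMSO series, 14 of 82 members, 17.1%, were called higher at 10 days and 5, 6.10%, lower, against 11.2% of 11463 genes called higher and 7.85% lower. In the TRULI series, 9 of 83, 10.8%, were higher and 6, 7.23%, lower, against 7.89% of 12466 genes higher and 6.02% lower. These shares lie near those of all genes, so that the counts alone do not set the members apart. The 2 series share no library. In both, 9 members were called higher: Rpl27, Rplp1, Rps23, Rpl34, Rps26, Rpl23a, Rps15a, Rpl23 and Rpl22. Rps27a was called lower in both. These are out of 68 members with at least 50 counts on average in both series. Of all 7348 genes of that abundance, 560 were called higher in both and 206 lower in both. The counts were not tested against each other. Over 68 members with at least 50 counts in both series, Pearson's r of the log2 fold changes was 0.906 and Spearman's rho 0.877, with the same sign for 62, beside 0.754 and 0.731 over 7348 genes of that abundance. The points share the libraries' depth and mitochondrial share, and no test was made of them.

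**Figure D4:**
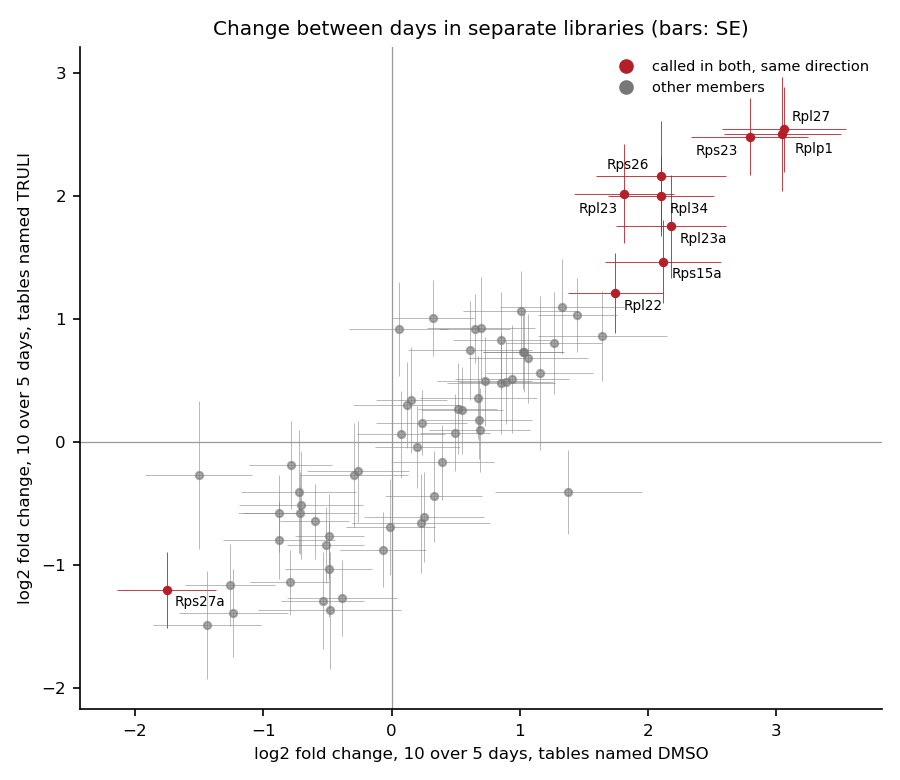
Log2 fold change of 10 over 5 days in the DMSO series (horizontal) and the TRULI series (vertical) by deposited name, for members with at least 50 counts on average, with SE bars and in red the members called in both series in the same direction. Rpl27, Rplp1 and Rps23 lie at the upper right between 2.48 and 3.06, Rps27a at the lower left.

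Rpl27 rose by 3.06 ± 0.48 and 2.54 ± 0.35 on the log2 scale in the DMSO and TRULI series (adjusted p = 0.00843 and 0.0104 by the edgeR quasi-likelihood test), which is 8.32-fold and 5.83-fold. Rplp1 stood at 206, 288 and 292 CPM in the 3 DMSO libraries at 5 days, 1024 and 3222 in pair A, 223 in TRULI replicate 3, 222 and 478 in pair B and 1063 and 2408 in the 2 TRULI libraries at 10 days. The 4 libraries deposited as 10-day samples exceeded each of the other 6, with changes of 3.05 ± 0.46 and 2.50 ± 0.46. Rps23 stood at 82.1, 115 and 63.9 CPM in the 3 DMSO libraries at 5 days, 302 and 881 in pair A, 65.6 in TRULI replicate 3, 76.6 and 75.2 in pair B and 297 and 508 in the 2 TRULI libraries at 10 days. It rose by 2.79 ± 0.46 and 2.48 ± 0.31, again without overlap. Rpl34 rose by 2.10 ± 0.41 and 2.00 ± 0.33 and Rpl23a by 2.18 ± 0.43 and 1.76 ± 0.42. Rps26, which sits at the mRNA exit and is delivered by the chaperone Tsr2, rose by 2.10 ± 0.51 and 2.17 ± 0.45. Rps15a and Rpl23 rose by 2.12 ± 0.45 and 1.47 ± 0.34 and by 1.81 ± 0.39 and 2.02 ± 0.40. Rpl22, which is known to bind RNA outside the ribosome, rose by 1.74 ± 0.37 and 1.21 ± 0.33, and it is the member of this group that shares no 100-base stretch with another gene.

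Among the members that fell, Rps27a, whose levels in each library are given above, changed by -1.75 ± 0.39 and -1.20 ± 0.31 in the DMSO and TRULI series. Rps18, Rpl27a and Rpl7a were called lower in the DMSO series alone, at -1.50, -1.44 and -1.26, and stood at -0.27, -1.49 and -1.16 in the TRULI series. Rps24, Rps10, Rpl17 and Rpl4 were called lower in the TRULI series alone, at -2.31, -1.39, -1.27 and -1.14, against -1.05, -1.23, -0.39 and -0.79 in the DMSO series. The difference between the series did not pass for any of them in the test of the change with TRULI between time points, which is the same contrast. In the DMSO series Rpl28, Rpl7l1, Rps16, Rpl14 and Rps2 were also called higher, at 1.64, 1.45, 1.26, 1.03 and 1.03.

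Members of each subunit lay on both sides of this division. Those shown here were picked from the members called between days in at least 1 series, so that their separation restates the calls. Rpl4, a large-subunit protein that reaches into the peptide tunnel and shares 5.14% of its stretches with 1 other gene, stood at 1085, 1080.1 and 697 CPM in the 3 DMSO libraries at 5 days, 493 and 593 in pair A, 947 in TRULI replicate 3, 835 and 918 in pair B and 373 and 435 in the 2 TRULI libraries at 10 days. Pair A and the TRULI libraries at 10 days were below each of the other 6. Rpl22, among the abundant large-subunit members, was above in the same 4. Rps10 stood at 49.5, 56.9 and 38.0 CPM in the 3 DMSO libraries at 5 days, 14.5 and 26.2 in pair A, 43.9 in TRULI replicate 3, 46.3 and 46.3 in pair B and 16.2 and 18.2 in the 2 TRULI libraries at 10 days, again lower in the 4 without overlap. Rps26 stood at 21.1, 18.3 and 13.9 CPM in the 3 DMSO libraries at 5 days, 35.8 and 114 in pair A, 20.4 in TRULI replicate 3, 13.8 and 21.5 in pair B and 48.5 and 117 in the 2 TRULI libraries at 10 days and was higher in the 4.

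These calls rested on few libraries, and the share of all genes called was not taken for most of the fits in this paragraph. DESeq2 called 17 members higher and 8 lower in the DMSO series and 14 and 12 in the TRULI series. In the DMSO series the members called higher and lower numbered 3 and 0 without DMSO replicate 1 at 5 days, 0 and 0 without replicate 2, and 3 and 2 without replicate 3, and they numbered 30 higher without replicate 1 of pair A and 7 and 8 without replicate 2 of pair A. In the TRULI series they numbered 2 and 0 without TRULI replicate 3, 0 and 0 without replicate 1 of pair B, and 5 and 1 without replicate 2 of pair B, and 10 were lower without TRULI replicate 2 at 10 days. The replicate block left 8 higher in the DMSO series and 1 lower in the TRULI series. The share of mt-Rnr2 separates the same 5-day and 10-day libraries without overlap, as does the level of Lfng, the gene of the sorting reporter, which was lower in the 10-day libraries. Their part in these differences cannot be told apart from that of culture time.

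**Figure D5:**
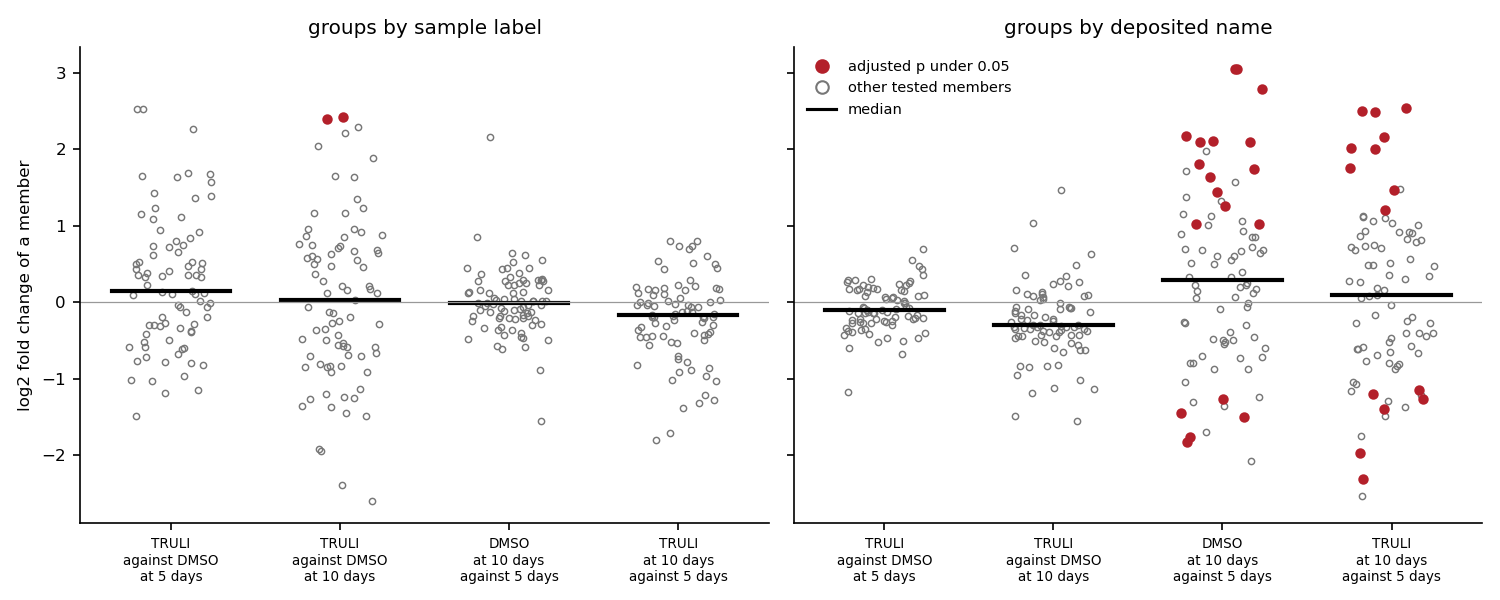
Log2 fold change of each tested member in the 4 comparisons, by sample label (left) and by deposited name (right), with red points for an adjusted p under 0.05 and a bar at the median. By label 2 members are called, both in TRULI against DMSO at 10 days, and by name the calls are all in the comparisons of 10 with 5 days.

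By sample label, the comparisons of days gave no call. For DMSO at 10 against 5 days, none of 83 members was called in either direction by edgeR, against 2.04% of 11942 genes called higher and 0.494% lower. The unadjusted p was under 0.05 for 2 members higher and 1 lower, 3.61% of the members against 14.9% of all genes. The SD of the log2 fold changes was 0.44 beside 0.92 over all genes. For TRULI at 10 against 5 days, none of 84 members was called, against 0% of 12325 genes in each direction. No member had an unadjusted p under 0.05, against 3.23% of all genes. DESeq2 called 0 members in both. Here the 10-day DMSO group is pair B and 2 of the 3 TRULI libraries at 5 days are pair A.

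The large and small subunits stood in a different ratio in the 4 libraries deposited as 10-day samples. The summed FPKM of large-subunit members was 3.58 to 4.25 times that of small-subunit members in those 4 and 1.41 to 2.04 times in the other 6. Without Rpl27 and Rplp1 the ratio was 1.30 to 1.51 in the 4 and 1.12 to 1.42 in the 6, with overlap. Of the members called higher in the DMSO series by name, 9 were of the large and 5 of the small subunit by symbol, out of 50 and 32 tested. Rpl7l1 is counted among the 9. The pattern of levels over 68 members also divided the libraries. Spearman's rho was 0.901 to 0.979 between any pair of the 6 libraries, 0.880 to 0.966 between any pair of the 4, and 0.638 to 0.849 across. These are descriptions over genes, which are not independent replicates. Within groups by name, the median SD of a member's log2 level was 0.31 in DMSO and 0.26 in TRULI at 5 days and 0.66 and 0.53 at 10 days. Over 7933 genes with at least 50 counts on average it was 0.30, 0.31, 0.40 and 0.38 in the same order. By label the medians over members were 0.31 and 0.70 at 5 days and 0.31 and 0.53 at 10 days, beside 0.30, 0.61, 0.26 and 0.38 over those 7933 genes.

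Members with well-known roles outside the extremes are given here with the log2 fold change of TRULI over DMSO in the order 5 and 10 days by label, then 5 and 10 days by name. Rpl5 and Rpl11 form, with ribosomal RNA, the particle that restrains the p53 inhibitor Mdm2. Rpl5 stood at 0.61, 0.47, -0.14 and -0.54 and Rpl11 at 0.80, 0.60, 0.25 and -0.17. Their levels differed by far, with 524 FPKM (367 to 888) for Rpl5 and 38.9 FPKM (28.3 to 58.8) for Rpl11, and the ranges did not overlap. Rpl3 and Rpl10 lie near the catalytic centre. Rpl3 stood at -0.19, -0.83, 0.24 and -0.07 and Rpl10 at 0.41, 0.85, -0.07 and 0.22. Rplp0, the base of the stalk, stood at -0.06, -0.13, 0.08 and 0.08. It stood at 133, 158 and 124 CPM in the 3 DMSO libraries at 5 days, 97.8 and 189 in pair A, 109 in TRULI replicate 3, 148 and 182 in pair B and 112 and 192 in the 2 TRULI libraries at 10 days, with the groups overlapping under either grouping. Its partner Rplp1 changed by 3.05 ± 0.46 between days in the DMSO series, where Rplp0 had 0.07 ± 0.34. Rpl41, the smallest ribosomal protein, stood at 0.44, 0.75, 0.10 and 0.35.

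On the small subunit, Rps6, the substrate of the S6 kinases, stood at 256, 249.8 and 149 CPM in the 3 DMSO libraries at 5 days, 112 and 124 in pair A, 201 in TRULI replicate 3, 178 and 193 in pair B and 94.4 and 159 in the 2 TRULI libraries at 10 days. Its log2 fold changes were -0.58, -0.57, -0.20 and 0.11 in the same order. Between days by name Rps6 stood at -0.87 ± 0.33 and -0.58 ± 0.31 in the DMSO and TRULI series, neither of which passed (adjusted p = 0.0872 and 0.231 by the edgeR quasi-likelihood test). Rps3, a protein at the mRNA entry with a second role in DNA repair, stood at 0.12, 0.21, -0.24 and -0.30, and Rps27a at -1.19, -1.25, -0.41 and 0.16. Rpsa, which is also known as a laminin receptor, stood at -0.28, -1.36, 0.23 and -0.52. None of these passed the test.

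Several ribosomal proteins have a second gene, a paralog, and the products of some paralogs can take the place of the parent in the ribosome. The coding sequences of Rps27 and its paralog Rps27l are shown because these genes had opposite signs with TRULI at 5 days by name and share no stretch of 100 bases with each other. Both have 255 coding bases (GENCODE M21 on GRCm38), of which 61, in capitals, differ, an identity of 76.1%. The differences fall on the first codon base 4 times, on the second 4 times and on the third 53 times.
Rps27 (chr3:90212522-90213651, minus strand): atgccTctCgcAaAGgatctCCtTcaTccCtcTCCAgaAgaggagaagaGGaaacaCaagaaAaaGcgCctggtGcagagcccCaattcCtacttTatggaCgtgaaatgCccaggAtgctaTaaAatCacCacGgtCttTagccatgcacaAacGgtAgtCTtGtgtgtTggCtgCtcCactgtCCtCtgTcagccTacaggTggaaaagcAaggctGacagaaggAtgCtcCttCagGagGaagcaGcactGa
Rps27l (chr9:66946086-66949516, plus strand): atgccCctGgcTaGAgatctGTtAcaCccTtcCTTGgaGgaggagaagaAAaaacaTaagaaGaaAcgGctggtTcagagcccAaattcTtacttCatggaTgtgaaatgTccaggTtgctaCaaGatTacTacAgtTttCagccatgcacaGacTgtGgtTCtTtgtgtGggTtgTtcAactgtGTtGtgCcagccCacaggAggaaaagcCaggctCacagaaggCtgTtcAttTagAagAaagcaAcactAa
Rps27l stood at 20.6, 29.0 and 11.9 CPM in the 3 DMSO libraries at 5 days, 14.3 and 33.3 in pair A, 38.1 in TRULI replicate 3, 37.4 and 24.4 in pair B and 18.3 and 23.4 in the 2 TRULI libraries at 10 days. TRULI replicate 3 and the first of pair B were above each DMSO library at 5 days, and the second of pair B lay within their range. Rps27 stood at 59.2, 71.4 and 39.5 CPM in the 3 DMSO libraries at 5 days, 21.4 and 46.6 in pair A, 45.5 in TRULI replicate 3, 46.4 and 54.8 in pair B and 16.8 and 56.6 in the 2 TRULI libraries at 10 days, with the groups overlapping. By name at 5 days Rps27l differed by 0.70 ± 0.36 and Rps27 by -0.21 ± 0.26, and by label by 0.48 ± 0.52 and -0.58 ± 0.43, none of which passed. The retrogene Rps27rt, with 89.4% of its stretches found in other genes, summed to 17 counts over the 10 libraries, with a highest level of 2.75 CPM.

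Rpl22 is known to repress its paralog Rpl22l1. Rpl22 stood at 191, 169.5 and 178 CPM in the 3 DMSO libraries at 5 days, 349 and 833 in pair A, 215 in TRULI replicate 3, 166 and 229 in pair B and 334 and 600.3 in the 2 TRULI libraries at 10 days, and Rpl22l1 at 38.1, 43.1 and 27.6 CPM in the 3 DMSO libraries at 5 days, 29.9 and 44.5 in pair A, 29.4 in TRULI replicate 3, 32.0 and 30.1 in pair B and 74.9 and 39.4 in the 2 TRULI libraries at 10 days. Between days by name Rpl22 rose by 1.74 ± 0.37 and 1.21 ± 0.33 in the DMSO and TRULI series, where Rpl22l1 had 0.05 ± 0.39 and 0.92 ± 0.38 and did not pass. With TRULI at 5 days by name they had 0.18 ± 0.21 and -0.25 ± 0.27. Rpl7l1, which acts in the making of the large subunit, had 1.45 ± 0.31 and 1.03 ± 0.30 between days and was called in the DMSO series, and its parent Rpl7 had -0.60 ± 0.27 and -0.64 ± 0.30. At 5 days by name Rpl7l1 had 0.19 ± 0.23 and Rpl7 0.07 ± 0.22. Rpl36al and Rpl36a stood at -0.60 ± 0.40 and -0.26 ± 0.38 with TRULI at 5 days by name, and Rps4x, the parent of the copy Rps4l, at -0.52 ± 0.26. Rpl39, parent of the undetected Rpl39l, stood at -0.67 ± 0.44. Rpl3l and Rpl10l were not detected beside Rpl3 and Rpl10, whose medians were 293 and 1106 FPKM. Of the 10 genes on the paralog list 6 were tested in either day comparison by name. Rps4l, annotated as a processed pseudogene and so no member, was called higher in both, and Rpl7l1 in the DMSO series.

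The start of transcription was read for the TOP motif, a C followed by a run of pyrimidines at the first base of the mRNA. The windows are shown for 4 members called higher and 4 called lower between days in at least 1 series by name. Each gives 10 bases before and 20 from the RefSeq start on GRCm38.p6, in the direction of the gene, with capitals for a run of at least 5 C or T that begins with C at the start itself. Rpl34 has 2 RefSeq entries, of which the first is given.
Rpl27 (chr11:101442235-101442264, plus strand): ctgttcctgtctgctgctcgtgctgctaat
Rps23 (chr13:90923112-90923141, plus strand): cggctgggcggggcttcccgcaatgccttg
Rps15a (chr7:118116128-118116157, minus strand): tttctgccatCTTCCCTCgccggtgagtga
Rpl34 (chr3:130730379-130730408, minus strand): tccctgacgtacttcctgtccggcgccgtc
Rpl27a (chr7:109519185-109519214, plus strand): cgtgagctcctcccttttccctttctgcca
Rps10 (chr17:27635225-27635254, minus strand): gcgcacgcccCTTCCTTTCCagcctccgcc
Rps18 (chr17:33955646-33955675, minus strand): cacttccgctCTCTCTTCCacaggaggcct
Rpl7a (chr2:26910797-26910826, plus strand): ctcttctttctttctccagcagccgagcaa
Rps15a, called higher, and Rps10 and Rps18, called lower, carried such a run, and the others did not at the annotated base. Of the 91 members 65 had a promoter entry, and 14 of these, 21.5%, began with the run, against 3.01% of 27025 genes with an entry. With the run allowed to begin within 10 bases of the start, 40 members, 61.5%, had one against 34.4% of all entries. Among members with at least 50 counts, 3 of the 12 with an entry that were called higher in the DMSO series by name had the run at the start, as did 1 of 3 called lower. In the TRULI series these counts were 1 of 7 and 1 of 2. For TRULI against DMSO at 5 days by name, the median log2 fold change was -0.07 over 10 tested members with the run and -0.10 over the others with an entry. The annotated start can miss the base that these cells use, and the letters in a window show neither a used start nor control by mTORC1.

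Length, base composition and sharing of sequence were set against the change between days. Over 68 members by name, Spearman's rho of the log2 fold change with transcript length was -0.213 in the DMSO and -0.276 in the TRULI series, against -0.00461 over 7499 genes and 0.0117 over 8290 genes of that abundance. With GC content rho was 0.01 and 0.06, and with the share of stretches found in other genes -0.185 and -0.201. The bounds of 30 members hold 58 genes for small nucleolar RNAs, guides for the modification of ribosomal RNA. The 28 of these hosts among the 68 had a median of 0.36 in the DMSO and -0.20 in the TRULI series, and the remaining members had 0.41 and 0.32. All are descriptions over genes that share the same libraries.

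Related genes were taken from lists, and their called genes are named here because they were called. The counts between days by name are to be read against the shares of all genes called, 11.2% higher and 7.85% lower in the DMSO series and 7.89% and 6.02% in the TRULI series. The lists are short, and no test of a list was made. Of the ribosomal proteins under other symbols, Fau rose between days in the DMSO series by name, by 2.50 ± 0.31 (adjusted p = 0.00539 by the edgeR quasi-likelihood test), and had 1.26 ± 0.45 in the TRULI series, where it did not pass. Rack1 was called in neither. Of 12 tested factors that carry or import ribosomal proteins, 4 were called higher and none lower in each series. Tsr2, the chaperone of Rps26, rose by 1.36 ± 0.30 and 1.90 ± 0.27, beside 2.10 ± 0.51 and 2.17 ± 0.45 for Rps26. Kpnb1 and Ipo5, importins that bring ribosomal proteins into the nucleus, rose by 1.48 ± 0.29 and 1.32 ± 0.36 in the DMSO and by 1.11 ± 0.28 and 1.12 ± 0.31 in the TRULI series. Nob1 was the fourth in the DMSO series at 1.58 ± 0.38 and Tnpo1 in the TRULI series at 1.19 ± 0.31.

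Of 27 translation initiation factors, 4 were called higher and 5 lower in the DMSO series and 4 and 4 in the TRULI series. Eif4b, which helps the helicase that opens mRNA leaders, rose by 1.90 ± 0.27 and 1.99 ± 0.34, and Eif5a by 2.44 ± 0.35 and 2.09 ± 0.32. Eif4g1, the scaffold of the cap-binding complex, fell by 1.43 ± 0.39 and 1.45 ± 0.31, and Eif3l, a subunit of the complex that holds the small subunit, by 1.17 ± 0.28 and 1.69 ± 0.32. Eif4g2, Eif4a2 and Eif1, the most abundant beside Eif4b, were called in neither. Of 5 elongation factors none was called higher and 2 were lower in each series: Eef2 fell by 1.12 ± 0.33 and 1.22 ± 0.28, Eef1g in the DMSO series and Eef1b2 in the TRULI series, while Eef1a1 had -0.18 ± 0.30 and -0.39 ± 0.28. Of 10 other mRNAs known to carry a TOP motif, none was higher, 2 were lower in the DMSO series (Vim and Naca) and 1 in the TRULI series (Vim).

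Of 16 genes of the mTORC1 and S6 kinase pathway, 1 was called higher and 2 lower in each series. Mtor, the kinase itself, stood at -1.88 ± 0.57 and -2.54 ± 0.41 and Eif4ebp2, a repressor of the cap-binding factor that mTORC1 inactivates, at -1.73 ± 0.44 and -1.73 ± 0.48, all of which passed. Akt1s1 was the gene called higher in the DMSO series and Larp1, which binds TOP mRNAs, in the TRULI series at 0.92 ± 0.26. Ddit4, Rps6kb1 and Sesn2 were called in neither. Of 7 tested genes of ribosome rescue, Abce1 was higher and Eif2ak4 and Nemf were lower in the DMSO series, and none was called in the TRULI series. With TRULI at 5 days by name, Trp53 was the gene of these related lists that passed, against 2.13% of all genes called higher, at 1.34 ± 0.31 (adjusted p = 0.0414 by the edgeR quasi-likelihood test), and the other 3 of its list, Mdm2, Mdm4 and Cdkn1a, had 0.68 ± 0.21, 0.68 ± 0.23 and 0.77 ± 0.27 and did not pass. Trp53 was also higher between days in the DMSO series, at 1.54 ± 0.38. By label, 1 initiation factor (Eif1ax) and 1 chaperone (Tsr2) were called higher and Vim and Mtor lower with TRULI at 10 days, against 0.857% and 0.889% of all genes, and none of these lists had a call in the other 3 comparisons.

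The label of supporting cells was set against marker lists. The 12 supporting-cell markers summed to 2233 to 5773 FPKM in every library, with none at 0 in any group. Epcam, an epithelial adhesion protein, made up the largest part of this sum. Lfng, the gene of the sorting reporter, stood at 179.5 to 369 FPKM in the 6 libraries deposited as 5-day samples and at 9.46 to 52.5 FPKM in the 4 deposited as 10-day samples, without overlap. By name, Lfng was called lower between days in both series, at log2 fold changes of -3.61 ± 0.47 and -2.19 ± 0.39, and so was Cldn9, a tight-junction protein, at -1.52 ± 0.34 and -1.19 ± 0.32. Sox2, a transcription factor of supporting cells, was called lower in the TRULI series, at -1.18 ± 0.32. No supporting-cell marker was called higher in either series, against 11.2% of all genes in the DMSO and 7.89% in the TRULI series. The named falls do not describe the list as a whole. Over the 12 markers the median log2 fold change between days was -0.12 in the DMSO and 0.39 in the TRULI series. With TRULI at 5 days by name Hes1, Otol1 and Epcam were called lower, at -1.11 ± 0.27, -1.22 ± 0.21 and -1.32 ± 0.25, against 1.23% of all genes. By label, Lfng was called lower with TRULI at 10 days and Otol1 and Epcam were called lower in DMSO at 10 against 5 days. Hair-cell markers (12) summed to 68.4 to 131 FPKM in DMSO and 103 to 510.0 in TRULI at 5 days by name, and to 17.9 to 21.2 in DMSO and 58.0 to 333 in TRULI at 10 days. In the DMSO series by name 7 of 11 tested hair-cell markers were called lower at 10 days and none higher, against 7.85% and 11.2% of all genes. Espn was called higher with TRULI at 5 days by name, at 2.69 ± 0.62, against 2.13% of all genes. Macrophage markers (8) summed to 0.946 to 30.0 FPKM with Adgre1, C1qa and C1qb at 0. Nearly all of this was Cd68, with 229 counts over the 10 libraries against at most 7 for any other marker on that list. Endothelial markers (4) summed to at most 1.19 FPKM, and melanocyte markers (4) to at most 9.15 with Tyr and Mlana at 0. Fibroblast markers (8) summed to 4.65 to 27.8 and those of Schwann cells and neurons (7) to 16.8 to 79.7. Of 5 muscle markers, Myod1 stood at 9.62 to 50.6 FPKM in the libraries deposited as 10-day samples and at 0 to 0.302 in the other 6, with Myog at 0 in every library. The part of the fall in Lfng and Cldn9, of hair-cell RNA or of Myod1-bearing RNA in the differences between days was not tested.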

How the data were processed

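The authors mapped reads to GRCm38 (mm10) with STAR and deposited 1 table per library with an expected count and an effective length per gene. The counter and the annotation they used are not given in the sources used here. The expected counts were deposited without normalization and need not be whole. The library kit differs between the labels (TruSeq, with poly(A) enrichment) and the methods (QIAseq FX).

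Counts were rounded, and chromosome M was left out of library totals and fits. Genes were named by GENCODE M21. The quasi-likelihood test of edgeR 4.0.16 in R 4.3.3 compared the groups, with filterByExpr and TMM scaling, with the 2 groups of a comparison in one fit, Benjamini-Hochberg adjustment over all genes tested and a call at an adjusted p under 0.05. Intervals are 95% and SE is the log2 fold change over the root of F. CPM use TMM factors over all 10 libraries, and FPKM use the deposited effective lengths and the nuclear total. A count of 0 was bounded by 3 counts, which is 0.493 to 1.49 CPM per library and covers counting error only. DESeq2 1.42.0, other scaling, no filter, chromosome M kept, protein-coding genes only, pseudogene counts added, all libraries in one fit, a replicate block, a fold threshold, libraries without a conflict and leaving out each library were alternatives. The code was tested on simulated counts.

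Named members were paralogs with their parents, 10 members with known roles, the 4 highest and 4 lowest log2 fold changes of each TRULI comparison among members with at least 50 counts on average, and the 3 highest and lowest by FPKM, without results that are not reported here. Members called between days were named after their values were seen. The members and the gene lists were chosen with earlier results of these data known.

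Replicate numbers were checked for pairing by the correlation of deviations from group means. By deposited name at 5 days it was 0.38, 0.19 and 0.32 for numbers 1 to 3, so that the numbers may pair these libraries, and by sample label -0.16, 0.07 and -0.20. Sequences at the start of transcription are from RefSeq (GRCm38.p6) and coding sequences from GENCODE M21. Protein sequences were not used here.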

Additional observations from a re-analysis of the deposited data

How the results depend on the processing

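Of 1865 values under alternatives for 133 results, 1401 of the log2 fold changes of named genes stayed on the same side of the threshold. A further 48 newly passed it, 6 no longer passed and 2 reversed. A change of sign was counted as reversed only where 1 of the fits called the gene. The 1401 thus include uncalled genes whose sign changed, such as Rpl5 and Rpl3 with groups by deposited name. The reversed values were those of Rpl27 and Rps23 for TRULI against DMSO at 10 days, at -0.50 and -0.56 with groups by deposited name.

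By sample label, TRULI against DMSO at 5 days had 3 members higher with DESeq2 and 7 without a filter, and 0 to 14 higher and 0 to 5 lower when each library was left out. At 10 days DESeq2 gave 9 higher and 3 lower, no filter 9 and 4, the replicate block 9 and 6, and all 10 libraries in one fit and the deposited names 0 higher each. Leaving out each library gave 0 to 14 higher and 0 to 10 lower, and a median log2 fold change of -0.37 to 0.18. DMSO and TRULI at 10 against 5 days had 14 and 9 higher and 5 and 6 lower by deposited name, where the DMSO median was 0.29. By deposited name, the DMSO days had 8 lower with DESeq2 and 8 higher with the replicate block, and 0 to 30 higher, 0 to 8 lower and medians of -0.25 to 0.62 when each library was left out. The TRULI days had 14 higher and 12 lower with DESeq2, 14 higher without a filter, 10 lower with all libraries in one fit and 1 lower with the replicate block, and 0 to 12 higher, 0 to 10 lower and medians of -0.27 to 0.28 when each library was left out. TRULI against DMSO at 10 days by deposited name had medians of -0.70 to 0.35. The cause of these changes was not tested. The replicate block moved no other count of calls by over 1.5 times.

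Leaving out a library of a group of 2 leaves 1 library, which is then assumed to vary like the other group. The share of all genes called was not taken for most alternatives, so that their counts of members have no background beside them. With 2 or 3 libraries a group and 2017429 to 6086171 nuclear counts each, members under about 50 counts had wide intervals.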
